A study of Mus musculus with 9 samples.

Results

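The genes described here are 8 members of the RNase A family, Rnase1, Rnase4, Rnase9, Rnase10, Rnase11, Rnase12, Rnase13 and Ang, in cells of the mouse epididymis. They were chosen by name, and all 8 were found among the 32195 genes of the UMI table (a UMI marks 1 captured transcript, so that PCR copies count as 1). Cells from untreated C57BL/6 mice were loaded on microfluidic chips and 3′ transcript tags were sequenced, in 9 libraries: mice aged 42 days gave 1 pool (P42) and mice aged 56 days 2 pools (P56 replicate 1 and P56 replicate 2), each with a library from caput, corpus and cauda. Each library held tissue pooled from several mice, and all segments of a pool shared their mice, so that the spread given here is that between pools. With a single pool at P42, the spread at this age was not measured. Below, values of a segment follow the order P42, P56 replicate 1, P56 replicate 2.

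RNase A proteins are small secreted proteins held together by disulphide bonds. Rnase1 (the pancreatic type), Rnase4 and Ang (angiogenin, known for promoting the growth of blood vessels) keep the residues that cut RNA, while Rnase9 to Rnase13 lack part of them and are known mainly from the male reproductive tract. The epididymis is a long duct in which sperm mature: principal cells secrete and absorb along its whole length, with gene sets that change from caput to cauda, basal cells lie beneath them, and clear/narrow cells acidify the fluid.

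Of the genes, 7 lay together on chromosome 14 (GRCm38, GENCODE vM21), in a stretch of 139035 bases from 51007751 to 51146785, in the order Rnase10, Rnase9, Rnase11, Rnase12, Rnase4, Ang and Rnase1. Rnase13 lay 774576 bases further along the same chromosome. The spans of Rnase4 and Ang overlapped on the same strand, and 219 exonic bases belonged to both, 18.2% of those of Ang and 13.4% of those of Rnase4. UMIs of this pair therefore cannot be fully told apart. The promoters of 5 members are printed, as 4 sequences, because their genes had unlike patterns or share a start: Rnase10 and Rnase9 followed opposite patterns within the caput, Rnase12 was read everywhere, and Rnase4 and Ang had an identical promoter in RefSeq (GRCm38.p6). Each runs 5′ to 3′ on the strand of its gene, from 250 bases before the start of the transcript to 50 bases after it, and capitals mark the letters AGAACA, the core hexamer bound by the androgen receptor, on either strand (TGTTCT as printed where it lies on the opposite strand).
Rnase10, chr14:51007501-51007800, plus strand: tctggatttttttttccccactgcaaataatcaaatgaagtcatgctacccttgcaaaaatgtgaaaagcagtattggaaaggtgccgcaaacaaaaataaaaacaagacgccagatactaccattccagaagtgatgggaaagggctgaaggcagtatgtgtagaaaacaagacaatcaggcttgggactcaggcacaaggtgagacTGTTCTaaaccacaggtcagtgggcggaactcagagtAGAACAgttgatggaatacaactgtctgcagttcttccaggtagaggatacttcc
Rnase9, chr14:51041818-51042117, minus strand: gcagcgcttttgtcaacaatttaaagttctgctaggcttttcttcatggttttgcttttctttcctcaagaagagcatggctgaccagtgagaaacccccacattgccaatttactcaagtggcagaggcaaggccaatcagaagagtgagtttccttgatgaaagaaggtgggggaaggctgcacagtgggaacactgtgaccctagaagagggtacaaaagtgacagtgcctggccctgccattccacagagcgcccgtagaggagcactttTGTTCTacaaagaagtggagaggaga
Rnase12, chr14:51057193-51057492, minus strand: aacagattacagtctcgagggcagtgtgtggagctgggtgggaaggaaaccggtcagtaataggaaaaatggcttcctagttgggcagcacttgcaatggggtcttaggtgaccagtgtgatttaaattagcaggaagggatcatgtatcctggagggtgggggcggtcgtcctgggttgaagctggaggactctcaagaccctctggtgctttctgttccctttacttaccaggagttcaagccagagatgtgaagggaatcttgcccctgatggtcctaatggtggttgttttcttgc
Rnase4 and Ang, chr14:51090827-51091126, plus strand: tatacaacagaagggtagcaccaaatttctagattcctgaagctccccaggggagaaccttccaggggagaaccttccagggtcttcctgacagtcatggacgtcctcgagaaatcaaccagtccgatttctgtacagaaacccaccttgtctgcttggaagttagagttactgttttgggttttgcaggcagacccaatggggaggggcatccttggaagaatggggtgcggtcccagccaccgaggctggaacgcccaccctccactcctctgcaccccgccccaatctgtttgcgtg

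AGAACA or its reverse complement was found in 19% of the 32851 mouse promoters of this length. It occurred at bases 209 to 214 and 246 to 251 of the printed Rnase10 promoter, at bases 275 to 280 of that of Rnase9, and at bases 135 to 140 of a downstream Rnase4 promoter (chr14:51095750-51096049). The promoters of Rnase1, Rnase11, Rnase12, Rnase13 and the shared start of Rnase4 and Ang did not hold these letters. The ETS core CCGGAA, the AP-1 motif TGANTCA and TATAAA, searched on both strands and present in 14.9%, 7.8% and 13.6% of all promoters, matched none of the members' promoters. These matches describe letters only.

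The libraries held 23114756 to 50655384 UMIs from 4971 to 4997 barcodes, and 42087 cells passed the filters, of which 41498 remained once clusters led by hemoglobin genes were set aside. Populations were rebuilt by clustering without the 8 members: 21133 principal, 5219 clear/narrow, 4433 myoid/fibroblast, 3724 basal, 2709 macrophage/monocyte, 788 endothelial, 745 sperm and 384 halo/T cells. Of the markers fixed for each, 15 of 25 were highest in principal cells, 7 of 9 in basal, 9 of 10 in clear/narrow and 11 of 12 in myoid/fibroblast cells, and all of them were for the other populations. Any pair of libraries shared between 1 and 27 barcodes, at most 0.641% of the smaller library. The P42 cauda stood apart: its principal cells had a median of 1550 UMIs against 3453 to 8048 elsewhere, and the 12 myoid/fibroblast markers (Acta2, Col1a1 and others) summed there to 16058 UMIs per 1000000 against 164 to 2200 in the other libraries. Transcripts of the principal cell markers were also found in all populations: the median level of the principal cell markers there was 29.0% to 163% of that in principal cells of the same library. Because of this, levels outside principal cells are given below together with the ratio of these markers. UMIs were summed per library and population, and a level is given in CPM, the UMIs of a gene per 1000000 UMIs of such a sum.

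To ask where along the duct the genes were read, principal cells of the segments were compared, blocked by pool. All 8 members were called (adjusted p under 0.05 and at least 1 log2 unit between the highest and the lowest segment), against a background of 32.9% of the 15929 genes tested. By fitted level Rnase9, Rnase10 and Rnase13 were highest in the caput, Rnase11 and Rnase12 in corpus cells, and Rnase1 and Rnase4 in cauda cells, whereas the fitted caput and cauda levels of Ang were equal.

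Rnase10, whose product is secreted in the first part of the duct, was read almost wholly in the caput among principal cells. Its level was 3174, 3159 and 2690.1 CPM in caput libraries, 7.39, 3.39 and 0.875 in those of the corpus, and 9.89, 1.64 and 1.97 in cauda libraries. The caput stood above every other library without overlap (3008 ± 275 against 3.89 ± 3.28 and 4.50 ± 4.67, SD, n = 3 pools), a fitted log2 difference of −9.87 ± 0.65 (SE) from caput to corpus (adjusted p 3.265e-05). Corpus and cauda did not differ beyond their spread (0.19 ± 0.52, adjusted p = 0.852). In these pairwise tests the background was 24.7% for corpus against caput, 25% for cauda against caput and 11.6% for cauda against corpus.

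Rnase13, another member that lacks catalytic residues, was also highest in the caput, at lower levels. The caput held 143, 179 and 202 CPM, the corpus 14.04, 21.3 and 1.82, and the cauda 0.791, 0.328 and 0.148. Caput, corpus and cauda did not overlap, with log2 differences of −4.09 ± 0.67 from caput to corpus (adjusted p = 0.00368) and −8.96 ± 0.92 from caput to cauda (adjusted p = 0.000477). The cauda values rested on 4, 6 and 3 UMIs, and without the P42 pool the call over the 3 segments was lost (adjusted p = 0.0526).

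Rnase9, known for binding sperm, was read in both caput and corpus. Its level was 1248, 2516 and 4101 CPM in caput libraries, 1493, 2861 and 1702 in those of the corpus, and 45.9, 196 and 162 in cauda libraries. Caput and corpus overlapped (−0.14 ± 0.37 from caput to corpus, adjusted p = 0.81), and without P56 replicate 2 the corpus became the higher of the pair. The cauda lay below both in every pool, by −4.10 ± 0.42 against the caput (adjusted p = 0.000214) and −3.96 ± 0.42 against the corpus (adjusted p = 0.000971).

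Rnase12 was read in every segment. It reached 591, 792 and 940.4 CPM in caput libraries, 1519, 1841 and 1829 in those of the corpus, and 587, 888 and 1005 in cauda libraries. Each corpus library stood above all caput and cauda libraries, with a log2 difference of 1.29 ± 0.22 from caput to corpus (adjusted p = 0.00245), while caput and cauda overlapped (0.32 ± 0.21, adjusted p = 0.281). The call over the segments was lost without P56 replicate 1 (adjusted p = 0.0804), without P56 replicate 2 (0.0705) and with no replicate block (0.0862).

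Rnase11, like Rnase12, was highest in the corpus, at about the level of a rare transcript. The caput held 3.01, 3.66 and 3.13 CPM, the corpus 26.3, 23.5 and 24.8, and the cauda 6.33, 6.35 and 7.90. The segments did not overlap, and the pools of a segment lay close together (SD 0.347, 1.40 and 0.900). The log2 difference from caput to corpus was 3.03 ± 0.20 (adjusted p 2.17e-05) and that from corpus to cauda −1.72 ± 0.19 (adjusted p = 0.00104).

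**Figure D1:**
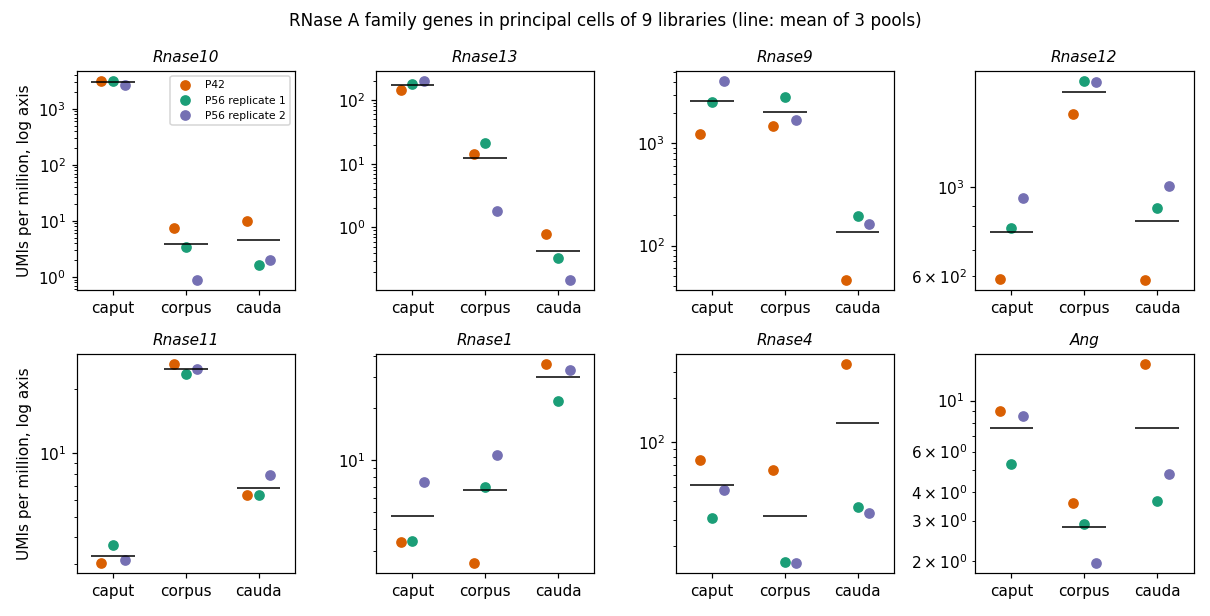
Level of the 8 genes in principal cells (y axis, CPM on a log axis that differs between panels) in caput, corpus and cauda. Each point is 1 library and the line is the mean of 3 pools. Rnase10 falls from about 3008 in the caput to 3.89 in the corpus, Rnase11 and Rnase12 peak in the corpus, and Rnase4 and Ang have their highest point in the P42 cauda.

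The 3 members that cut RNA were at their lowest in the corpus or caput. Rnase1 was at 3.35, 3.40 and 7.48 CPM in caput libraries, 2.53, 7.01 and 10.6 in those of the corpus, and 35.8, 21.9 and 33.2 in cauda libraries. The cauda stood apart from both other segments, by 3.0 ± 0.36 log2 units from the caput (adjusted p = 0.000631) and 2.36 ± 0.36 from the corpus (adjusted p = 0.00483), whereas caput and corpus overlapped. Rnase4 was at 76.6, 30.8 and 47.5 in caput libraries, 65.0, 15.5 and 15.3 in those of the corpus, and 338, 36.6 and 33.7 in cauda libraries with the P42 library far above the rest, while the P56 libraries of caput and cauda overlapped. The call of Rnase4 over the segments (1.77 log2 units, adjusted p = 0.0172) was lost without P56 replicate 1 (adjusted p = 0.126), with TMM factors set to 1 (0.0585) and with no replicate block (0.117). Ang was at 8.98, 5.32 and 8.60 in caput libraries, 3.59, 2.90 and 1.95 in those of the corpus, and 14.4, 3.67 and 4.79 in cauda libraries. The corpus was lower than the caput (−1.31 ± 0.30, adjusted p = 0.0104) and than the cauda, but the highest segment of Ang became the caput without the P42 pool and under 4 other settings. Without P56 replicate 2, Ang was not called (adjusted p = 0.104). The myoid/fibroblast, macrophage/monocyte and basal markers were set beside Rnase4 and Ang, and those of myoid/fibroblast cells shared part of their order. These 12 markers summed in principal cells to 2200, 1981 and 1887 CPM in caput libraries, 1524, 188 and 164 in those of the corpus, and 16058, 416 and 401 in cauda libraries. They were thus also lowest in the corpus within each pool and highest in the P42 cauda. Between caput and cauda at P56 they did not move with Rnase4: the markers were far higher in the caput, while the Rnase4 libraries of these segments overlapped. The 12 macrophage/monocyte markers summed to 268 to 559 in caput libraries and 199.9 to 674 in those of the corpus, with 3077 for the P42 cauda against 81.1 and 192 at P56. They were lowest in the corpus in no pool. The P42 corpus (674) was above the P42 caput (399), and at P56 the cauda (81.1 and 192) was below the corpus (203 and 199.9). The 9 basal markers did not follow either. They summed to 192, 81.7 and 136 in caput libraries, 200, 118 and 127 in those of the corpus, and 172, 323 and 384 in cauda libraries. The part of these cells in the differences between segments was not tested.

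Summed, the 8 genes took between 0.104% of the UMIs of principal cells (P42 cauda) and 0.80% (caput, P56 replicate 2). In the caput their UMIs were mainly those of Rnase10 (60.5%, 47.2% and 33.6%) and Rnase9 (23.8%, 37.6% and 51.3%). In the corpus Rnase9 and Rnase12 shared them almost evenly in the P42 pool (47.7% and 48.5%) and in P56 replicate 2 (47.4% and 51.0%). In corpus P56 replicate 1 Rnase9 held 59.9% and Rnase12 38.6%. In the cauda Rnase12 held 56.6%, 76.9% and 80.5%. These shares count captured transcript ends and are not divided by gene length.

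Within the caput, principal cells were not uniform. The clusters had been made without the members, so their levels can be described but, being of the same cells, are given with no test. In the clusters led by Tecta, Ffar2 and Cst12 or Teddm2, Rnase10 stood at 5348 CPM in the P42 pool and 5315 in P56 replicate 2, and in the related cluster led by Ffar2, Cst12 and Krt23 at 4999 in P56 replicate 1. Rnase9 in these 3 groups was at 222, 307 and 376, and Rnase13 at 22.1, 15.5 and 22.7. The clusters drew 99.6%, 99.5% and 82.5% of their cells from the library named. In its smaller groups the Krt23 cluster had Rnase10 at 3399 in the P42 pool (108 cells) and 4047 in P56 replicate 2 (194 cells). Rnase9 was at 568 and 615 in these, and Rnase13 at 44.9 and 29.1. The cluster led by AY761185, BC048679 and the beta-defensin Defb39 was the reverse. There Rnase10 was at 736, 885 and 615, Rnase9 at 6503, 10309.7 and 11620.4, and Rnase13 at 599.6, 622 and 523. Rnase12 was also at its caput maximum there, at 1075, 1437 and 1545, against 399 to 733 in the other caput clusters, dividing cells (led by Hmmr, Cenpf and Prc1) included with 640.4 to 711 among them.

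The remaining caput clusters had lower levels of Rnase10 than the Tecta-led cells and lower levels of Rnase9 and Rnase13 than the AY761185-led cells. In cells led by Defb47, Spink13 and Defb18, Rnase10 was at 2624, 3211 and 3014 and Rnase9 at 289.5, 321 and 398. In cells led by Lypd8, Ppy and Pate6, Rnase10 was at 1615, 823 and 553 and Rnase13 at 133, 249 and 232. Rnase10 and Rnase13, both highest in the caput as a segment, were thus highest in different caput cells in each of the 3 pools.

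The corpus held a similar contrast. A cluster led by Defb15, Defb21 and Muc15 had Rnase9 at 8540.3 in the P42 pool (102 cells) and 12559.7 in P56 replicate 1 (345 cells), and Rnase13 at 178 and 214. Fewer than 50 cells of P56 replicate 2 fell into it, and 1068 cells of that library stayed without a name. In the cluster led by Defb26, Cyp17a1 and Defb22, which held most corpus principal cells of both P56 pools (1883 of 2771 and 1625 of 2000), Rnase9 was at 1093, 2009 and 1598 and Rnase13 at 3.01, 1.73 and 0.0794. Most P42 corpus cells (1278 of 1928) lay in another cluster, led by Ltf, Pate1 and Defb22, with Rnase9 at 1038 and Rnase13 at 2.49. Rnase12 spanned a narrower range, at 1533 and 1841 in the Defb15-led cells, 1396, 1818 and 1809 in the Defb26-led cells and 1593.7 in the Ltf-led cells. Most Rnase13 UMIs of the P42 and P56 replicate 1 corpus (91 of 133, and 349 of 389) lay in the Defb15-led cells.

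**Figure D2:**
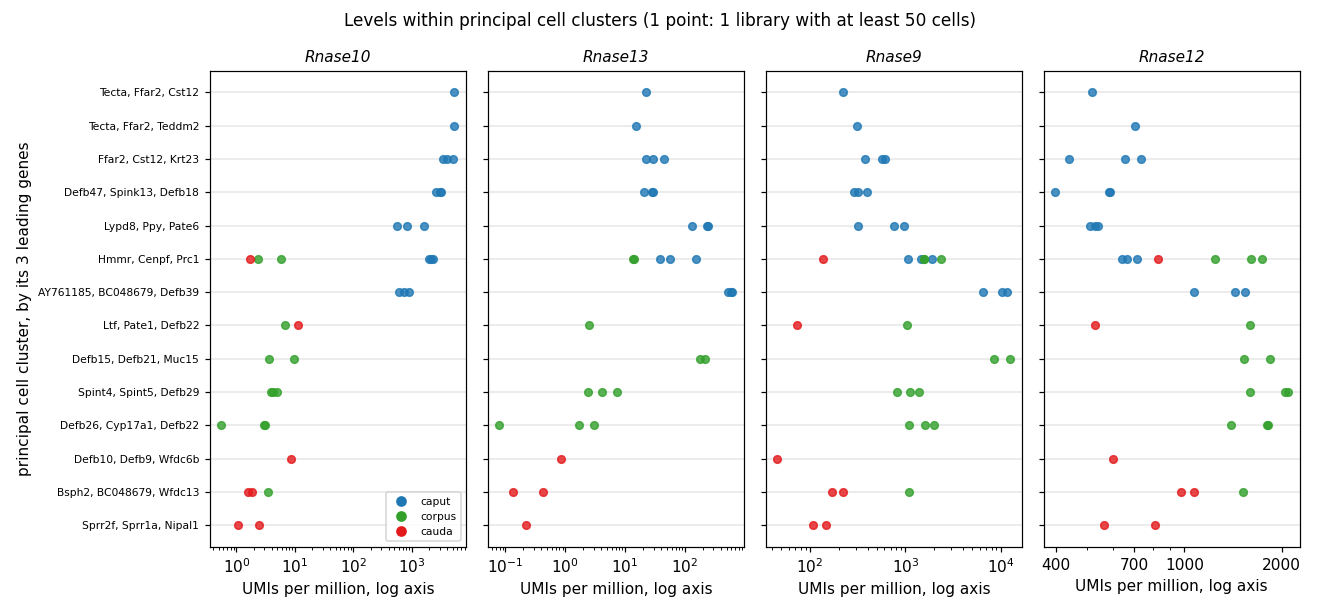
Level of Rnase10, Rnase13, Rnase9 and Rnase12 (x axis, CPM, log axis) in clusters of principal cells, each named by its 3 leading genes (y axis). Each point is 1 library with at least 50 cells in the cluster, coloured by segment, and levels of 0 are not drawn. The AY761185-led caput cells have the highest caput points of Rnase9, Rnase12 and Rnase13 (Rnase9 from 6503 to 11620.4) and Rnase10 between 615 and 885.

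How many cells had at least 1 UMI was counted after thinning each principal cell to 1000 UMIs, which left out 367 shallower cells in the P42 cauda and at most 14 in any other library. Rnase10 was found in 77.6%, 79.3% and 66.3% of caput principal cells (exact 95% intervals 75.6% to 79.5%, 77.9% to 80.7% and 64.5% to 68.1%). In endothelial cells of the same libraries the share was 48.7%, 75.0% and 59.5%, with median depths of 6831, 5275.5 and 6201 UMIs against 7323, 6101 and 6529, and the intervals of the 2 cell types overlapped in both P56 libraries, so that this share was not told apart from background there. Caput myoid/fibroblast cells had it in 61.8%, 77.9% and 77.1% at median depths of 5291, 5310 and 6050.5 UMIs, in P56 replicate 2 above principal cells, and halo/T cells there had 79.5%. That endothelial, myoid/fibroblast and halo/T cells lack the gene was assumed and not tested. Basal cells had 59.0%, 71.7% and 50.7%, so the populations did not have 1 common share. Rnase12 was found in 73.0%, 83.8% and 82.7% of corpus principal cells against 37.2%, 40.0% and 42.3% of endothelial cells there. Rnase9 was found in 57.1%, 79.2% and 70.9% of corpus principal cells against 28.7%, 43.3% and 26.9% of endothelial cells, at median depths of 3456, 6072 and 6549 UMIs against 4044.5, 4089.5 and 4990. Endothelial cells had the lowest mean corpus level of Rnase12 among the populations and, after basal cells (607 CPM), the lowest of Rnase9. Mean corpus levels of Rnase12 were 1730 CPM in principal, 943 in halo/T and 573 in endothelial cells. Those of Rnase9 were 2018, 887 and 624 in the same order. By mean level the gap to halo/T cells was thus smaller than that to endothelial cells. Rnase13 in the caput was found in 10.8%, 12.6% and 14.9%, against 3.97%, 5.26% and 7.63% of endothelial cells. Without thinning, the mean shares over the 3 libraries were 94.1% for Rnase10, 97.8% for Rnase12, 93.5% for Rnase9 and 35% for Rnase13. These intervals cover counting error only.

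To ask which cells other than principal cells held the transcripts, each population was compared with principal cells with the library as a block. Of 56 combinations of a member and a population, 34 were called, and 15 with no replicate block. The 9 libraries came from 3 pools, and libraries of a pool share mice, so that p-values over libraries, here and for the marker ratio below, are too small. Rnase9, Rnase11, Rnase12 and Rnase13 were lower than in principal cells in basal, clear/narrow, myoid/fibroblast and macrophage/monocyte cells, 4 of 8 members in each, against backgrounds of 8.06%, 7.84%, 5.45% and 4.5% of all genes lower. Endothelial cells had 5 members lower (Rnase9, Rnase10, Rnase11, Rnase12 and Rnase13, background 11.6%), halo/T cells 3 (Rnase9, Rnase12 and Rnase13, 6.17%) and sperm 3 (Rnase9, Rnase11 and Rnase12, 3.19%). Rnase4 and Ang were higher in basal, myoid/fibroblast and macrophage/monocyte cells, 2 of 8 members in each (backgrounds 8.51%, 11.5% and 10.7%), and Rnase1 was the single member higher in clear/narrow cells (7.13%). No member was higher in endothelial cells, halo/T cells or sperm, where 12.9%, 5.88% and 15.1% of all genes were. The median over the 8 members was between −0.55 (halo/T) and −1.31 (endothelial), while that over all 12614 genes was between −0.06 and −0.21.

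Rnase1, the general RNA-degrading member, was highest in clear/narrow cells. These held 35.8, 56.1 and 49.0 CPM in caput libraries, 44.1, 282 and 359 in those of the corpus, and 93.5, 224 and 199 in cauda libraries. Clear/narrow cells were above principal cells of the same library in all 9 libraries, by 3.11 ± 0.28 log2 units (adjusted p 5.17e-14), and above myoid/fibroblast cells, the next population by mean log2 level, in 9 of 9 libraries by 3.0 ± 0.75 (SD). The order of the 7 other populations, whose mean CPM ran from 9.26 (sperm) to 23.6 (halo/T), did not hold beyond its spread. In clear/narrow cells the corpus was above the caput in all 3 pools, least in P42, and the segments differed (2.07 log2 units, adjusted p = 0.0468).

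Rnase4, an RNase with a preference for uridine, was highest in myoid/fibroblast and basal cells. Basal cells held 715, 424 and 466 CPM in caput libraries, 365, 154 and 181 in those of the corpus, and 646, 292 and 231 in cauda libraries. Myoid/fibroblast cells held 455, 209.9 and 179.8 in caput libraries, 943, 373 and 335 in those of the corpus, and 1263, 339.9 and 245 in cauda libraries. Over all 9 libraries the 2 populations did not differ beyond their spread (0.20 ± 1.01 log2 units, SD, higher in myoid/fibroblast cells in 6 of 9). The order followed the segment: basal cells were higher in each caput library, and myoid/fibroblast cells in each corpus and cauda library. This change of order between segments was not tested. Both populations were above principal cells, basal cells by 2.57 ± 0.23 (adjusted p 4.61e-14) and myoid/fibroblast cells by 2.90 ± 0.23 (adjusted p 4.23e-16). Macrophage/monocyte cells followed with an average of 223. Endothelial cells (152), sperm (161), halo/T cells (139) and clear/narrow cells (101) came next, in an order whose steps did not hold beyond the spread. The sperm average included 628 CPM in the P42 cauda, from 81 UMIs. Principal cells were last (73.2, with 338 in the P42 cauda), below clear/narrow cells in 8 of 9 libraries.

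Ang, which shares its promoter with Rnase4, was highest in basal cells and macrophages/monocytes. Basal cells held 72.0, 45.4 and 59.0 CPM in caput libraries, 24.8, 19.0 and 26.0 in those of the corpus, and 33.8, 29.0 and 17.0 in cauda libraries. Macrophage/monocyte cells held 45.5, 33.5 and 30.5, then 36.3, 30.1 and 16.9, then 56.6, 18.04 and 14.05. The pair did not differ beyond the spread, and they were above principal cells by 2.35 ± 0.20 (adjusted p 5.60e-16) and 2.21 ± 0.21 (adjusted p 2.52e-14). Myoid/fibroblast cells, at 17.9 on average, were below macrophages/monocytes in 9 of 9 libraries, whereas for Rnase4 they were above them on average.

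Transcripts of principal cells in another population were described by their markers. Each member was set against the median ratio of the principal cell markers, and an exact two-sided sign-flip permutation test was run over libraries (56 pairs, smallest p with 9 libraries 0.00391). Whether free RNA would hold all genes of principal cells in 1 ratio was not tested, and members such as Rnase9 differed widely between clusters of principal cells, so a place above or below this ratio is a description. Of the pairs, 18 were above this ratio and 10 below it at an adjusted p under 0.05. The test was run on the members alone, so the share of all genes above or below the ratio is not known. In the edgeR fits, however, the median over all genes was only −0.06 to −0.21 log2 units from principal cells. The median of the markers was 29.0% to 163% of that in principal cells, mostly under 100%. A gene not particular to principal cells would therefore tend to lie above the ratio, and the pairs above it are to be read with this in mind. With the mean over the segments of each pool as the unit, a test added after seeing the data, 3 pools allow no p under 0.25 and no pair was called. In all 28 pairs the 3 pools lay on the same side, but these pairs were picked on the same libraries, so this adds no support. Pairs not called over libraries could also have the 3 pools on 1 side, such as Rnase1 in basal cells (permutation test, adjusted p = 0.0597) and Rnase13 in sperm (0.401). Rnase4 was above it in basal cells by 3.86 ± 0.97 log2 units (SD, above in 9 of 9 libraries) and in myoid/fibroblast cells by 3.83 ± 1.06 (9 of 9), and Ang in basal cells by 3.62 ± 0.95 (9 of 9), each with an adjusted p of 0.0129. Rnase1 was above it in clear/narrow cells by 4.46 ± 1.33 (9 of 9, adjusted p = 0.0129). In myoid/fibroblast cells Rnase1 was above it by 1.16 ± 1.22 (8 of 9) and Rnase11 below it (−0.51 ± 0.66, below in 8 of 9), each with an adjusted p of 0.0469.

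Rnase4 was above the ratio of the markers in 6 of 7 populations (not in halo/T cells, adjusted p = 0.075) and Ang in all 7. Rnase9 was below it in basal (−1.23 ± 0.88), clear/narrow (−0.88 ± 0.76), myoid/fibroblast (−0.62 ± 0.51), macrophage/monocyte (−0.88 ± 0.83) and endothelial cells (−0.44 ± 0.44), in 9, 9, 9, 9 and 8 of 9 libraries. Rnase12 was below it in the first 4 of these populations, with means of −0.41 to −0.53. When each cell was gated on its own markers in place of clusters, Rnase9 was no longer called in basal (−0.14, adjusted p = 0.407), clear/narrow (−0.17) and macrophage/monocyte cells (−0.17), and Rnase12 was not called in basal and clear/narrow cells, among 10 of the 28 pairs that lost their call, Rnase9 in endothelial cells included (0.02). Rnase10 was above it in clear/narrow cells by 0.73 ± 0.33 (8 of 8 libraries), in myoid/fibroblast cells by 0.74 ± 0.48 (8 of 8) and in macrophages/monocytes by 0.53 ± 0.62 (7 of 8), and gated cell by cell it was not called in clear/narrow cells (0.57) and macrophages/monocytes (0.29). In caput libraries, where Rnase10 was mainly read, the values were 0.39, 0.42 and 0.53 in clear/narrow cells and 0.19, 0.18 and 0.25 in myoid/fibroblast cells. Those of corpus and cauda were larger (0.56 to 1.32 and 0.68 to 1.45). They rested on 6 to 18 UMIs in clear/narrow cells and 6 to 55 in myoid/fibroblast cells. Caput macrophages/monocytes held 2368, 3105 and 3539.8 CPM of Rnase10, a range that overlapped with that of caput principal cells. Rnase13 passed in no population with its 5 or 6 libraries, for which the smallest possible p were 0.0625 and 0.03125.

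**Figure D3:**
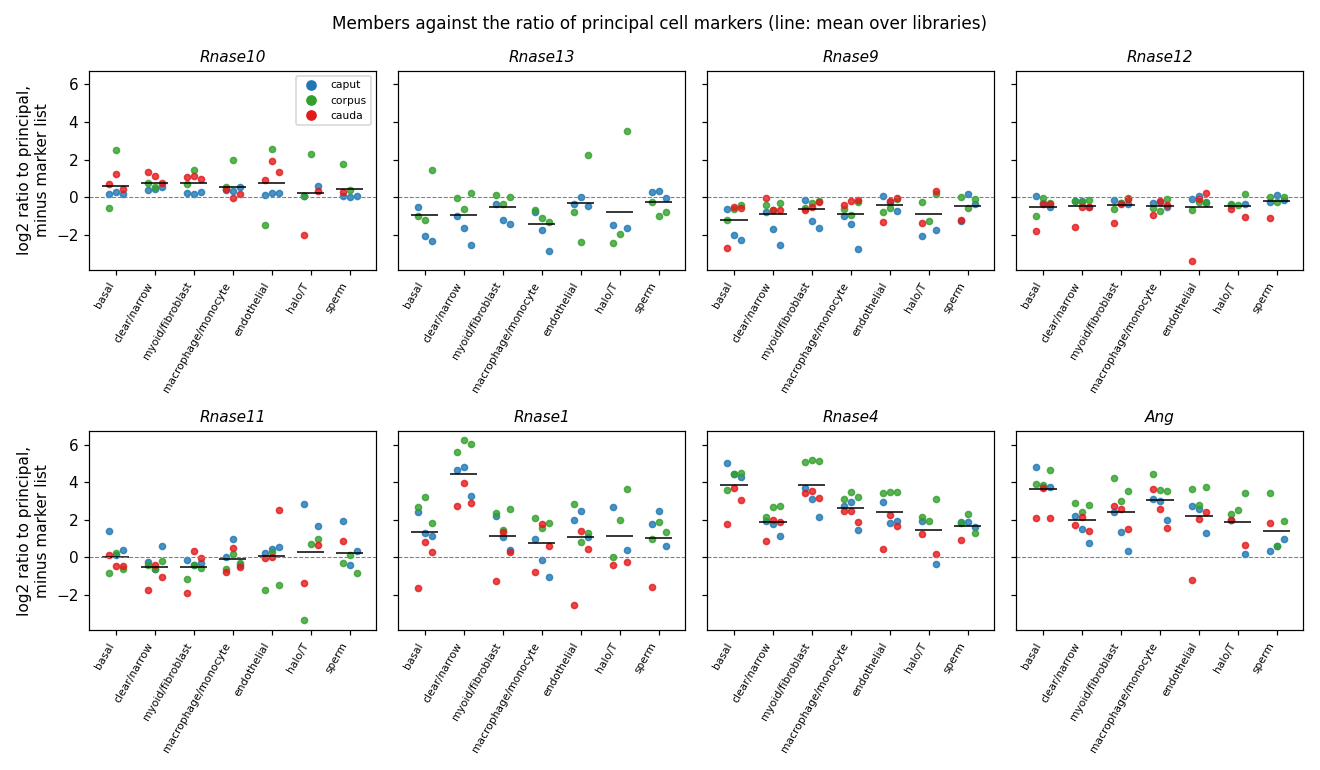
Log2 ratio of a member's level in a population to that in principal cells of the same library, minus the median of this ratio over the principal cell markers (y axis), by population (x axis). Each point is 1 library, coloured by segment, the black line is the mean over libraries, and 0 is the ratio of the markers. Rnase1 stands at 4.46 in clear/narrow cells and Rnase4 and Ang at 3.86 and 3.62 in basal cells, while Rnase9 and Rnase12 lie below 0 on average.

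Segments were compared in the same way in the 4 largest other populations. Of 8 members, 7 were called in basal cells (all but Rnase12, background 13.6%), 6 in clear/narrow cells (all but Rnase12 and Ang, 16.4%), 4 in myoid/fibroblast cells (Rnase4, Rnase9, Rnase10 and Rnase13, 10.2%) and 5 in macrophages/monocytes (Rnase1, Rnase9, Rnase10, Rnase11 and Rnase13, 11.4%). These 22 of 32 calls became 13 with no replicate block, 10 without P56 replicate 1 and 12 without P56 replicate 2. Rnase10 and Rnase13 were highest in the caput in each of the 4 populations. In caput basal cells Rnase10 lay 0.17, 0.27 and 0.14 log2 units above the ratio of the principal cell markers. In caput clear/narrow cells it lay 0.39, 0.42 and 0.53 above it. Rnase13 was below this ratio in the same libraries (−0.53, −2.09 and −2.36 in basal cells, −0.98, −1.64 and −2.57 in clear/narrow cells). The part of principal cell transcripts in these calls was not tested. Rnase9 was called in all 4 with the cauda lowest, 3.18 to 3.72 log2 units under the corpus, whereas corpus and caput did not differ beyond their spread (adjusted p = 0.325 in basal, 0.14 in clear/narrow, 0.915 in myoid/fibroblast and 0.53 in macrophage/monocyte cells). For Rnase4 and Ang, basal cells had their highest mean in the caput (535 ± 157, 233 ± 115 and 389.6 ± 224 CPM for Rnase4 from caput to cauda, and 58.8 ± 13.3, 23.3 ± 3.75 and 26.6 ± 8.65 for Ang, SD, n = 3 pools), with adjusted p over the 3 segments of 0.0049 and 0.0123. The caput was above the corpus for both (adjusted p = 0.0025 for Rnase4 and 0.0129 for Ang), while caput and cauda did not differ beyond their spread for Rnase4 (−0.31 ± 0.20, adjusted p = 0.329) and differed by less than 1 log2 unit for Ang (−0.88 ± 0.25). Differences between populations in these patterns were not tested.

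In principal cells, P56 was set against P42 in each segment separately, with the lone P42 library of a segment assumed to vary like the P56 libraries. Of 24 tests on the members 8 were called at an adjusted p under 0.05: Rnase12 was higher in the P56 libraries in all 3 segments, Rnase9 and Rnase11 were higher in the cauda, Rnase4 was lower in corpus and cauda, and Ang was lower in the cauda. With 1 pool at P42, these tests compare that pool with the 2 P56 pools, and age cannot be told apart from the pool or its chips. Of the 8 members, 1 was called for the caput (background 0.991% of 18361 genes), 2 for the corpus (6.41%) and 5 for the cauda (32.7%). The median over the members was 0.61, 0.33 and −0.26, and over all genes 0, 0.02 and 0.

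Rnase12 was higher at P56 by 0.86 ± 0.17 log2 units in the caput (adjusted p = 0.0421), 0.79 ± 0.17 (0.021) in corpus cells and 1.5 ± 0.17 (0.000117) in cauda cells, with both P56 libraries above the P42 library in each segment. In the P42 cauda Rnase12 was higher in deeper cells, at 302, 521 and 805 CPM in principal cells under 2000, from 2000 to 5000 and above 5000 UMIs, while P56 cauda cells of the upper 2 classes held 886 to 1032. With TMM factors set to 1, which lowers the median of all genes by 0.31, 0.51 and 0.80 in the 3 segments, the caput and corpus differences were 0.55 and 0.27 and were not called, while that of the cauda was 0.69 and stayed called. Rnase9 was higher at P56 by 2.78 ± 0.39 in the cauda (adjusted p = 0.00103), and its differences in caput (1.70 ± 0.35, adjusted p = 0.0829) and corpus (1.12 ± 0.34, 0.0999) did not pass. In the caput, the AY761185-led cells in which Rnase9 was highest were 233 of 1811 principal cells at P42 and 698 of 3419 and 940 of 2780 at P56, and within them the P42 library was also the lowest. Most principal cells of the P42 and P56 corpus also lay in different clusters, led by Ltf and by Defb26. Rnase11 had 0.98 ± 0.28 in the cauda (adjusted p = 0.0214), although its levels there were 6.33 at P42 and 6.35 and 7.90 at P56. This call was lost with TMM factors set to 1 (0.17), by DESeq2 (adjusted p = 0.0746) and without cells under 5000 UMIs.

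Rnase4 was lower at P56, with log2 differences of −2.45 ± 0.17 in the cauda (adjusted p 4.37e-06) and −1.56 ± 0.18 in the corpus (adjusted p = 0.00133). In the corpus, principal cells of the P42 library also carried more myoid/fibroblast markers (1524 CPM against 188 and 164 at P56) and macrophage/monocyte markers (674 against 203 and 199.9), and the part of these in the difference was not tested. In the caput the difference was −0.68 ± 0.18 (adjusted p = 0.114), and it was called with TMM factors set to 1 (−0.97, adjusted p = 0.0219). The difference between the cauda and the caput in this effect was itself called (−1.78 ± 0.26, adjusted p = 0.00161), the single one of 24 such tests on the members, where 18.6% of all genes were called for cauda against caput, 0.457% for corpus against caput and 4.45% for cauda against corpus. With the pool as a replicate block, a fit added after seeing the data because the segments of a pool share mice, the Rnase4 difference between cauda and caput was −1.77 ± 0.24 (adjusted p = 0.000271), and 2 more were called, Rnase4 for cauda against corpus (−0.89 ± 0.25, adjusted p = 0.0429) and Rnase1 for cauda against corpus (−1.88 ± 0.35, adjusted p = 0.00534). In that fit 22.6% of all genes were called for cauda against caput and 8.73% for cauda against corpus. Ang had a log2 difference of −0.96 ± 0.31 in the cauda (adjusted p = 0.0366), which was −1.77 and called with TMM factors set to 1, and was not called by DESeq2 (adjusted p = 0.144).

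In the P42 cauda, Rnase4 moved with the markers of myoid/fibroblast cells and with depth. Principal cells with under 2000 UMIs, from 2000 to 5000 UMIs and above carried 2.83%, 1.75% and 0.741% of their UMIs in the 12 markers, and Rnase4 was at 615, 349 and 152 CPM in the same order. The ratio of Rnase4 to these markers hardly moved, at 2.18, 1.99 and 2.05 UMIs per 100 marker UMIs, while myoid/fibroblast cells of this library, in which the markers took 7.94% of the UMIs, had 1.59. Macrophage/monocyte markers were raised too, at 3077 CPM in these principal cells against 81.1 to 674 in the other libraries. Most of the cells (1818 of 1917) belonged to a cluster led by Defb10, Defb9 and Wfdc6b, 98.2% of which came from this library, whereas most P56 cauda principal cells (1742 of 2212 and 1736 of 2295) lay in the cluster led by Bsph2. With cells under 5000 UMIs left out, an alternative chosen after seeing the data, Rnase4 was still called in the cauda (−1.30) but Ang was not called (−0.61) and no difference between segments remained. The part of these markers in the Rnase4 values was not tested.

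**Figure D4:**
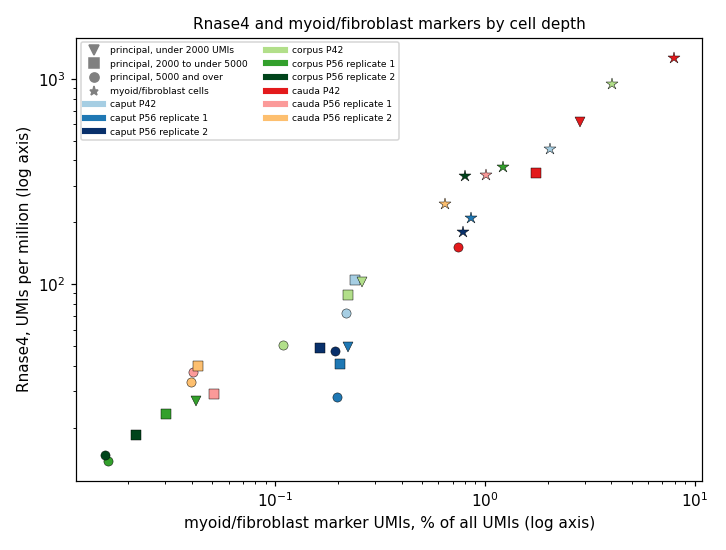
Rnase4 level (y axis, CPM, log axis) against the percentage of UMIs in 12 myoid/fibroblast markers (x axis, log axis), in principal cells grouped by their UMIs (triangles, squares and circles) and in myoid/fibroblast cells (stars) of each library, marked by colour, groups under 50 cells left out. The P42 cauda principal cells (red) run from 0.741% and 152 up to 2.83% and 615, away from the principal cells of all other libraries.

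The order of the ages was also read in the other populations. Over the 21 combinations of a population and a segment with all 3 pools, the P42 library was above both P56 libraries for Rnase4 in 21, and below both for Rnase9 in 21 and for Rnase12 in 21. For Ang it was above both in 16, and for Rnase1 and Rnase11 below both in 17 and 16. Rnase10 and Rnase13 had no common order (P42 above both in 10 and 5, below both in 7 and 5). The populations of a library share its mice, chip and free RNA, so these counts are not independent of each other and carry no test. Such orders were not counted over all genes, so how common they are among other genes is not known here.

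**Figure D5:**
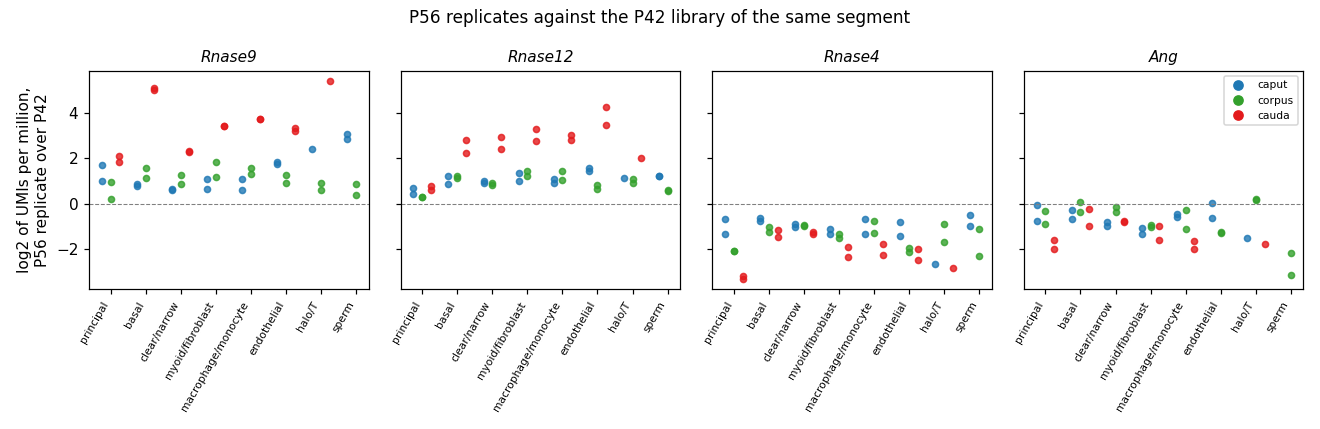
Log2 ratio of the level in a P56 library to that in the P42 library of the same segment (y axis), by population (x axis), for Rnase9, Rnase12, Rnase4 and Ang. Each point is 1 P56 replicate, coloured by segment, and comparisons with a level of 0 are not drawn. All points of Rnase9 and Rnase12 lie above 0 and all points of Rnase4 below it.

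Other genes of the family and of RNA breakdown, from lists set for this work, gave the surroundings. Of 13 further RNase A relatives, 6 were in the table and 2 passed the filter on low counts, Rnase6 and Ear2, an eosinophil-type RNase. Neither was called between the segments in principal cells. Both were higher in macrophages/monocytes than in principal cells (Ear2 by 4.71 ± 0.30, Rnase6 by 1.73 ± 0.23). Among RNases outside the family, Rnaseh2c, a subunit of RNase H2, was called between the segments (corpus highest, 1.51 log2 units). Genes known for the initial segment, such as Ros1, Ovch2 and Etv4, were called in 8 of 8 cases with the caput highest, where 32.9% of all genes were called between segments. They were listed because they are known from that region, so this checks the segment labels and is no result about the members.

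The genes most like each member were taken by Pearson correlation of log2 levels over the 68 sums of a library and population, which share libraries and free RNA, so that r is a description only. Rnase10 was closest to Adam28 (r = 0.988), Lcn9 (0.985) and Lcn6 (0.982), Rnase13 to Agr2 (0.951), Defb12 (0.934) and Bsph1 (0.933), and Rnase9 to C4bp (0.909), Spink11 (0.896) and AY761185 (0.894). Rnase12 was closest to Gamt (0.909), Atg4a (0.889) and Pgap2 (0.878), and Rnase11 to Wfdc6a (0.78), Gcsh (0.773) and Cyb561 (0.773). Rnase4 was closest to S100a6 (0.864), Man2a1 (0.854) and Gas6 (0.847), and Rnase1 to Napsa (0.792), Ldhb (0.784) and Uqcr11 (0.756). No member was among the 3 genes closest to another. Ang stayed under 10 CPM in each segment of principal cells and was left out of this comparison.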

How the data were processed

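Single-cell 3′ RNA libraries were analysed from 9 epididymal tissues (caput, corpus and cauda of 3 pools of mice). The deposited values are raw UMI counts per gene and cell, which the authors made by aligning reads with STAR 2.7.3a to GRCm38 p6, assigning them to exons with featureCounts and counting with UMI-tools. Whether counting used the strand is not given in the sources used here.

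Cells with 300 to 4000 genes, at most 20000 UMIs and under 50% mitochondrial UMIs were kept (Python 3.11.15, scipy 1.17.1). Clusters were made without the 8 members (3000 variable genes, 50 components, Leiden resolution 1, leidenalg 0.10.2) and named by marker lists. No doublet caller was run, and doublets were not removed. Libraries held 23114756 to 50655384 UMIs. Counts were summed per library and population with at least 10 cells and tested with edgeR 4.0.16 (quasi-likelihood, TMM, Benjamini-Hochberg adjustment over all genes tested), also in every adjusted p printed here except those of the permutation test, adjusted over its 56 pairs. Segments were compared with the pool as a block, because each pool supplied all its segments, populations with the library as a block, and ages as 1 against 2 libraries per segment. Correlations of deviations were 0.03 to 0.596 within a pool and −0.531 to 0.398 between pools, so these ranges overlapped. The caput of P56 replicate 2 had 0.093 with its own corpus and 0.094 with that of replicate 1. On simulated data, 99% of changes of 2 log2 units and 57% of changes of 1 were recovered for segments in principal cells, and 77% and 11% for ages in the caput. Recovery here meant an adjusted p under 0.05 alone, with no limit on the fold change. The simulated libraries were independent, with a fixed dispersion and no pool effect, and changes were put only on genes above a count limit. These rates are therefore not those of the calls made here.

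Alternatives were DESeq2 1.42.0, no filter on low counts, TMM factors set to 1, each cell gated on its own markers, cells above 10000 UMIs left out, no replicate block, other thinning, and each pool left out in turn. Leaving out cells under 5000 UMIs, a marker ratio test over pools and a pool block for differences of ages were added after seeing the data. All members were tested in every comparison and are named where called, as are listed relatives (1 listed gene outside the family is not reported here), and the 3 genes closest to each member with at least 10 CPM (UMIs per 1000000) in principal cells of a segment. Members and lists were chosen with earlier results of these data known. Replicates are pools for segments and ages. Comparisons of populations treat the 9 libraries of 3 pools as units, and their p-values are too small to that extent.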

Additional observations from a re-analysis of the deposited data

Results flagged for a closer look

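The P56 to P42 difference of Rnase4 in principal cells was not the same in cauda and caput by a test of the difference itself. From P42 to P56 the log2 difference was −2.45 ± 0.17 (SE) in the cauda and −0.68 ± 0.18 in the caput, a difference of −1.78 ± 0.26 (edgeR adjusted p = 0.00161). The levels were 338 CPM at P42 and 36.6 and 33.7 at P56 in the cauda, and 76.6 at P42 and 30.8 and 47.5 at P56 in the caput, so both P56 libraries lay below the P42 library in each segment. The fit had no pool term although the segments of a pool share mice, and with the pool as a replicate block the difference was −1.77 ± 0.24 (adjusted p = 0.000271). The test rests on a single P42 pool, whose age cannot be told apart from the pool itself, and the P42 cauda is the library whose principal cells had a median of 1550 UMIs and carried myoid/fibroblast markers. With cells under 5000 UMIs left out, no such difference was called for any member at an adjusted p under 0.05.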

How the results depend on the processing

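Over 94 results on single members, 808 values were computed under the alternatives: 578 kept their direction and their side of the threshold, 194 lost the call, 11 gained it, 10 without a test moved by more than the spread, and 15 reversed. Where no cause is given, it was not tested.

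With no replicate block, the members called between segments were 6 of 8 in principal cells (8 with the block) and 13 of 32 in the other populations (22), and those called between populations were 15 of 56 (34). Among all genes, the fits with no replicate block gave 601 between segments in myoid/fibroblast cells (1201 with the block) and 570 in macrophages/monocytes (1075), and 1175 between basal and principal cells (2091), 1201 for clear/narrow (1888), 1174 for macrophage/monocyte (1918) and 986 for halo/T cells (1520). With each pool left out in turn, members called between segments were 6 to 7 in principal cells and 10 to 26 elsewhere, and all genes called were 2468 to 6761 in principal (5233), 448 to 2699 in basal (1478), 855 to 2872 in clear/narrow (1855), 263 to 2567 in myoid/fibroblast and 334 to 2323 in macrophage/monocyte cells. Against principal cells they were 1174 to 2371 for macrophages/monocytes and 590 to 1584 for halo/T cells. The marker ratio went from 28 called pairs to 0, from 0 to 0 over the pools left out, because 6 libraries allow no p below 0.03125 before adjustment, and to 0 with the mean over the segments of each pool as the unit (added after seeing the data).

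For ages, members called (8) were 13 with no filter on low counts and 5 with cells under 5000 UMIs left out (an alternative chosen after seeing the data). Differences in the effect of age (1) were 2 by DESeq2, 8 with no filter, 2 with TMM factors set to 1, 4 with gated cells, 0 without cells under 5000 UMIs and 3 with the pool as a replicate block (added after seeing the data). All genes called were 963 (no filter), 576 (TMM factors set to 1) and 348 (gated) against 182 in the caput, 2245 (no filter), 2740 (TMM factors set to 1), 771 (cells over 10000 UMIs left out) and 767 (cells under 5000 UMIs left out) against 1177 in the corpus, and 3496 without cells under 5000 UMIs against 6006 in the cauda. With no filter, genes called against principal cells were 3779 in basal, 3490 in clear/narrow, 4208 in myoid/fibroblast (2139), 3577 in macrophage/monocyte, 5210 in endothelial (3079), 3114 in halo/T and 6779 in sperm cells (2310). With gated cells they were 1255 in macrophage/monocyte, 1820 in endothelial, 705 in halo/T and 947 in sperm cells, and without cells under 5000 UMIs 1005 in halo/T cells.

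Shares of cells with a UMI went from 74.4% to 83.5% at 2000 UMIs and 94.1% unthinned for Rnase10, from 12.7% to 20.7% and 35% for Rnase13, from 69.1% to 84.9% and 93.5% for Rnase9, and from 79.8% to 93.8% and 97.8% for Rnase12, since more UMIs per cell were read.

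Reversed values were few. With TMM factors set to 1, the age differences of Rnase1 in the cauda (−0.38), Rnase10 in the caput (−0.12), and Rnase11 (−0.12) and Rnase13 (−0.25) in the corpus changed sign. Without cells under 5000 UMIs, those of Rnase10 in the cauda (0.29), Rnase13 in the corpus (−0.21) and Ang in the corpus (0.21) did, the last also with no filter (0.01). None of these differences had been called. Rnase9 was highest in the corpus without P56 replicate 2 (4.25), and with each pool left out its span over the segments was 3.86 to 4.48. Ang was highest in the caput with no filter (1.36), TMM factors set to 1 (1.43), cells over 10000 UMIs left out (1.44), cells under 5000 left out (1.28) and without P42 (1.31), and with each pool left out its span was 1.29 to 1.7. Gated, the marker ratio of Rnase9 in endothelial cells was 0.02. In principal cells Rnase13 rested on 13 UMIs over the 3 cauda libraries, and Ang on 29 to 176 UMIs in each library. Whether depth limited these results was not tested.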

Other observations

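Rnase6, a further member of the family known from phagocytes, was lower in clear/narrow (−1.06 ± 0.24 log2 units, SE) and endothelial cells (−1.25 ± 0.38) than in principal cells. Among RNases outside the family, Rnaseh2a, the catalytic subunit of RNase H2, was higher in sperm than in principal cells (2.49).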
